A study of Equus caballus with 12 samples.

Results

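The 7 miRNAs described here, eca-miR-95, eca-miR-504, eca-miR-592, eca-miR-384, eca-miR-190a, eca-miR-490-5p and eca-miR-1543, form a second tier of heart-enriched miRNAs in the horse, outside the miR-1, miR-133, miR-208, miR-499 and miR-378 families known from muscle. They were taken by name from a table of 629 small RNA entries, of which 294 were known equine miRNAs, and were chosen by their levels in heart, which exceeded those in lung and liver. All heart values of the 7 below are therefore descriptions without a test, and for the 7 only lung against liver was tested. Small RNA was sequenced from heart (left ventricle), lung (caudal lobe of the right lung) and liver (right lobe) of 4 healthy Polish cold-blooded stallions aged 1 to 2 years, with 1 library per tissue and horse and 12 libraries in all. The horses carried the numbers 27, 30, 32 and 34, and n = 4 horses wherever a mean ± SD is given.

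MicroRNAs are short RNAs that guide Argonaute proteins to matching messenger RNAs and lower their output. Many hairpins lie inside a longer host gene and can be cut from its transcript, and others have a promoter of their own. The heart profile is dominated by muscle miRNAs that act on the contractile program, and the miRNAs beneath them are better known from neurons, smooth muscle or tumours than from the ventricle.

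A hairpin entry was found in the RefSeq annotation of the horse assembly TB-T2T for 7 of the 7 miRNAs. The hairpin of eca-miR-190a lay within the bounds of TLN2 (talin 2), which links integrins to actin. The hairpins of eca-miR-504, eca-miR-490-5p and eca-miR-592 lay in FGF13, an intracellular fibroblast growth factor that modulates voltage-gated sodium channels, CHRM2, the muscarinic receptor through which the vagus nerve slows the heart, and GRM8, a metabotropic glutamate receptor. eca-miR-1543 lay in SNHG4, a long non-coding small nucleolar RNA host gene, and eca-miR-384 lay in no annotated gene. No other miRNA hairpin was annotated within 10 kb of any of the 7. The table used gives the bounds of genes only, so exons and introns were not told apart. Strand was not compared, so a gene named here need not be the host of the hairpin within it. The mature sequences of the 7 miRNAs are not printed here.

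Each level is a normalized count, that is, reads per miRNA divided by a size factor of the library, as deposited. Libraries held 8113895 to 9355513 reads in heart, 3536536 to 7560746 in lung (lowest in horse 34) and 3066869 to 8595569 in liver (lowest in horse 27), as recovered from the steps between values. The smallest value above 0 was worth 6 reads in every library, or 3.71 to 11.1 normalized counts. A listed 0 was not a measured low level in every case. In lung 7 of the 294 known miRNAs, in liver 7 and in heart 4 were listed at 0 in at least 1 library while another library of the same tissue held 100 reads or more. The leukocyte miRNA miR-142-5p, for example, was listed at 0 in the lungs of horses 32 and 34 and had 14043 and 9433 reads in those of horses 27 and 30. Entries at 0 are therefore called listed at 0, and no mean ± SD is given for a tissue that mixes them with values above 0. The tissues carried the miRNAs of their main cells: the summed striated muscle miRNAs (miR-1, miR-133a, miR-133b, miR-208a, miR-208b and miR-499-5p) lay between 5460420 and 8413940 normalized counts in heart, between 8693 and 12572 in lung, and between 1511 and 6447 in liver. Because these are pieces of whole tissue, fewer cells of a type and less of a miRNA per cell cannot be told apart.

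In heart, the 7 miRNAs together made up 544 to 1829 CPM (reads scaled to the same total in every library), against 63.0 to 82.0 CPM in lung and 26.7 to 63.2 CPM in liver. Their heart means spanned a wide range: 8709 normalized counts for eca-miR-95, 2054 for eca-miR-504, 716 for eca-miR-1543, 156 for eca-miR-490-5p, 84.9 for eca-miR-190a, 60.8 for eca-miR-592 and 35.2 for eca-miR-384. The hearts of eca-miR-95 and eca-miR-504 overlapped slightly, with the lowest eca-miR-95 heart (2549) below the highest eca-miR-504 heart (2684). The hearts of eca-miR-1543 lay apart from those of eca-miR-504 above and eca-miR-490-5p below, and each of the 4 lowest miRNAs overlapped with its neighbour in this order. Among 256 known miRNAs that reached 10 normalized counts in at least 4 of the 12 libraries, the heart level of eca-miR-95 ranked 48, and the levels of the others ranked between 78 (eca-miR-504) and 189 (eca-miR-384). All 7 passed this minimum, and 4 of them (eca-miR-592, eca-miR-384, eca-miR-190a and eca-miR-490-5p) reached it through heart alone.

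**Figure D1:**
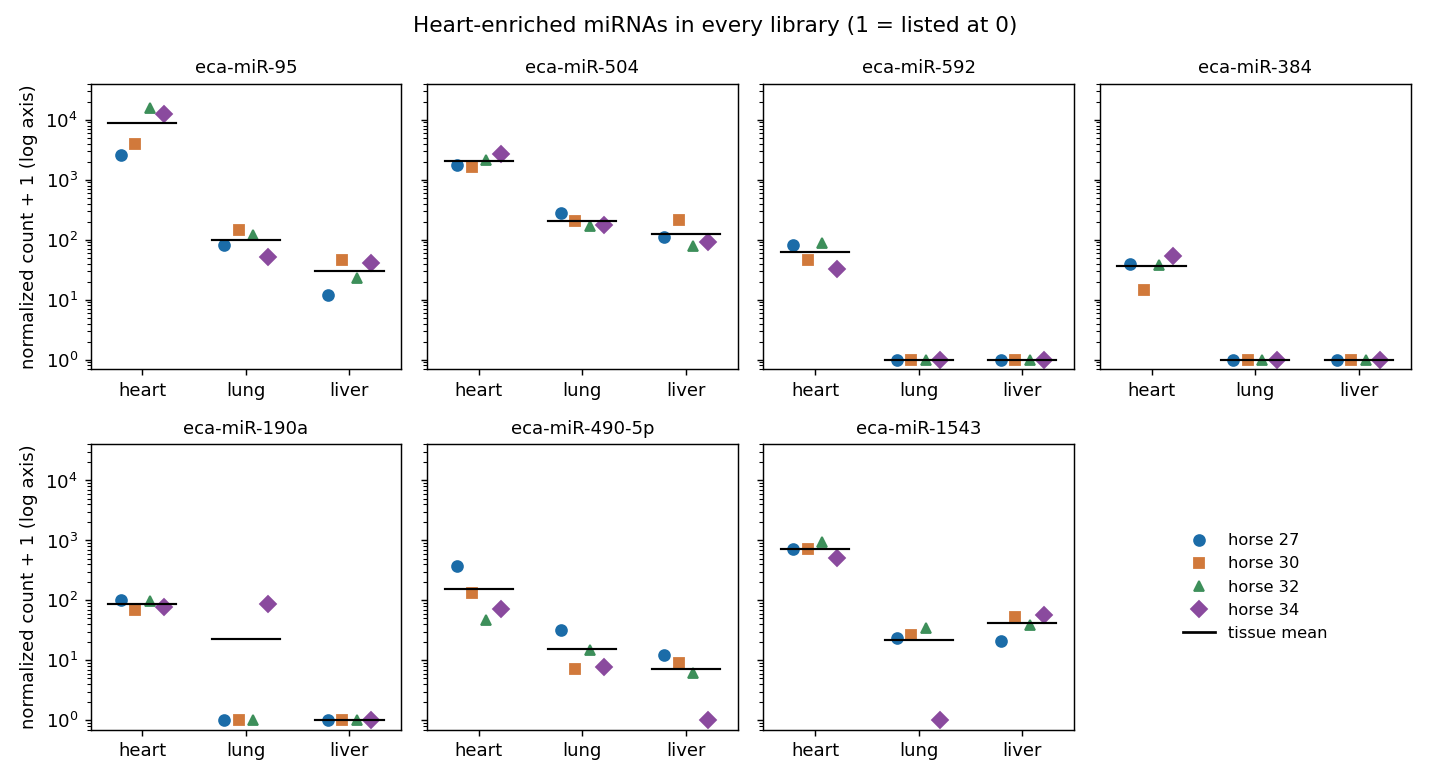
Normalized count + 1 on a log axis for each of the 7 miRNAs in heart, lung and liver, with 1 point per library (colour and shape give the horse), a black line at the tissue mean, and 1 standing for an entry listed at 0. Heart points lie above all lung and liver points in 6 panels, and in the eca-miR-190a panel the lung of horse 34, at 86.0 normalized counts, lies among the hearts.

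eca-miR-95 was the most abundant of the 7 and differed most between tissues. In heart it stood at 2549, 3977, 15774 and 12537 normalized counts in horses 27, 30, 32 and 34 (8709 ± 6452). In lung it stood at 80.5, 142, 120.0 and 50.9 (98.3 ± 40.4), and in liver at 11.1, 44.3, 22.0 and 39.6 (29.3 ± 15.4), the lowest of which was 6 reads. The 3 tissues did not overlap: the lowest heart was above the highest lung and the lowest lung was above the highest liver. The heart mean was 88.6 times the lung mean and 298 times the liver mean, and within horses the ratio of heart to lung ran from 28.1 in horse 30 to 246 in horse 34. The 4 hearts fell apart into horses 27 and 30 at the low end and horses 32 and 34 at the high end, and the highest was 6.19 times the lowest.

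eca-miR-190a, from the hairpin in the talin gene, had the most even heart levels of the 7 in normalized counts. On CPM its hearts lay between 4.94 and 9.90, and those of eca-miR-504 were closer together, at 133 to 206. It stood at 101, 68.4, 95.0 and 75.7 normalized counts in the hearts of horses 27, 30, 32 and 34 (84.9 ± 15.4), and it was listed at 0 in all 4 livers. In lung it was listed at 0 in horses 27, 30 and 32 and at 86.0 in horse 34, where it rested on 76 reads. That 1 lung lay within the range of the hearts, so heart and lung overlapped for this miRNA and for none of the other 6. On CPM the lung of horse 34 was at 21.5, above all 4 hearts. In the same lung library eca-miR-592 and eca-miR-384 were listed at 0. Of the striated muscle miRNAs there, miR-1 stood at 8965 normalized counts against 7886 to 10161 in the other 3 lungs, whereas miR-133a stood at 3055 against 665 to 1037 and miR-133b at 216 against 52.3 to 76.7. The red blood cell miRNA miR-144 was likewise listed at 0 in those 3 lungs and had 1193 reads in the lung of horse 34. The other red blood cell miRNA followed, miR-486-5p, went the other way. It was lowest in the lung of horse 34, at 23889 normalized counts against 25444 to 66840 in the other 3 lungs. The part of these differences in the eca-miR-190a value was not tested.

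eca-miR-190b is a near-identical relative of eca-miR-190a with the same seed, and how reads that could come from either were split between them is not given in the sources used here. It ran the other way across tissues. It stood at 16.2, 26.8, 44.7 and 26.9 normalized counts in heart (28.6 ± 11.8), at 55.6, 93.4, 139 and 84.9 in lung (93.2 ± 34.5) and at 64.7, 34.6, 99.1 and 48.2 in liver (61.7 ± 27.9), in horses 27, 30, 32 and 34. Its heart level was below its lung level by a log2 fold change of -1.68 (SE 0.42; limma, adjusted p = 0.00662), and 38.7% of the 256 miRNAs were called in either direction in that comparison. Against liver the log2 fold change was -1.06 with an adjusted p of 0.0510 in limma, which did not pass, and with the horse as a block the adjusted p was 0.0268. On CPM the same difference was -1.87 (limma, adjusted p = 0.000978). In the lung of horse 34 the counts of both were almost the same, 76 reads for eca-miR-190a and 75 for eca-miR-190b, while in the other 3 lungs only eca-miR-190b was above 0. Whether the eca-miR-190a value there reflects the split of reads was not tested.

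**Figure D2:**
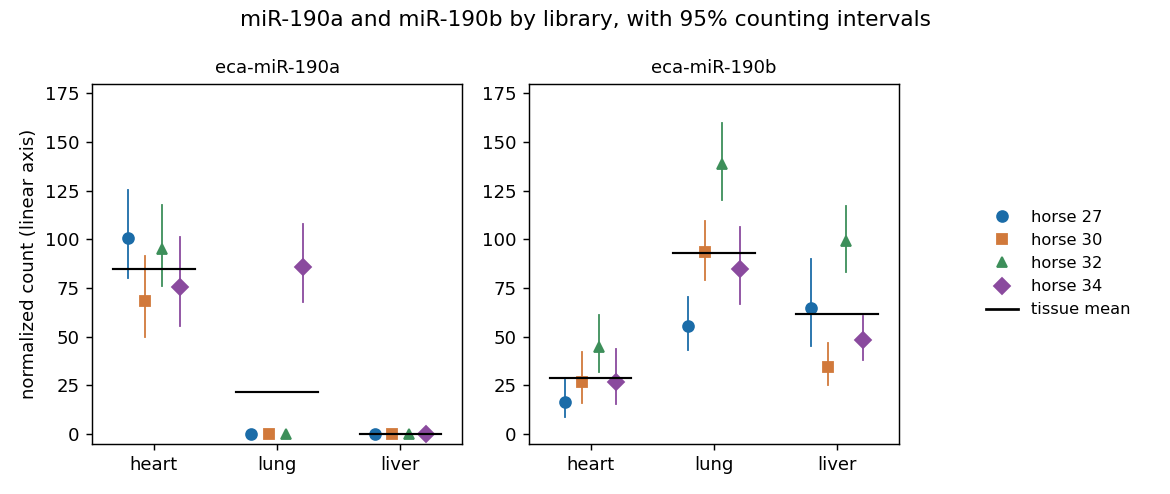
Normalized counts of eca-miR-190a (left) and eca-miR-190b (right) in each library on a linear axis, with 95% Poisson intervals that cover counting error only and black lines at tissue means. eca-miR-190a lies at 68.4 to 101 in the hearts and at 0 in lung and liver except the lung of horse 34 at 86.0, whereas eca-miR-190b lies lowest in heart.

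The miRNAs with hairpins within genes of ion channel regulation and neurotransmitter receptors differed widely in level. eca-miR-504 stood at 1769, 1608, 2156 and 2684 normalized counts in the hearts of horses 27, 30, 32 and 34 (2054 ± 479). In lung the values were 273, 202, 166 and 174 (204 ± 48.6), and in liver 109, 208, 77.8 and 90.5 (121 ± 59.4). Every heart was above every lung and liver, whereas lung and liver overlapped through the liver of horse 30. The heart mean was 10.1 times the lung mean and 16.9 times the liver mean. Unlike the other 6 miRNAs, eca-miR-504 was at 77.8 normalized counts or more in all 12 libraries.

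eca-miR-490-5p, from the hairpin in the M2 receptor gene, stood at 373, 131, 46.9 and 72.3 normalized counts in the hearts of horses 27, 30, 32 and 34 (156 ± 149). In lung it stood at 31.4, 6.18, 14.0 and 6.79 (14.6 ± 11.8), and in liver at 11.1, 8.05 and 5.14 in horses 27, 30 and 32 and at 0 in horse 34. In normalized counts horse 27 was highest in all 3 tissues, and its heart stood well apart from the other 3. Its liver value was 6 reads, the fewest that the table lists. The livers of horses 30 and 32 had 10 and 7 reads, so nothing is read from the order of the livers. The heart mean was 10.7 times the lung mean, and 9.26 times with horse 27 left out of both tissues. With only the heart of horse 27 left out, and its lung kept, it was 5.71 times. Within horses 27, 30 and 32 the ratio of heart to liver was 33.6, 16.3 and 9.13. Lung and liver values rested on 39 reads or fewer. Every heart was above every lung in normalized counts, but on CPM the hearts of horses 32 and 34, at 4.49 and 4.72, lay below the lung of horse 27, at 6.32. The other arm of this hairpin, miR-490-3p, was not analysed here.

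eca-miR-592 and eca-miR-384 were seen in heart only. eca-miR-592, from the hairpin in the glutamate receptor gene, stood at 79.6, 44.6, 87.2 and 32.0 normalized counts in the hearts of horses 27, 30, 32 and 34 (60.8 ± 26.7), on 19 to 78 reads. eca-miR-384, the one in no annotated gene, stood at 38.5, 13.4, 36.9 and 52.2 (35.2 ± 16.1), on 9 to 33 reads. Both were listed at 0 in all 8 lung and liver libraries, so no ratio is given. Horse 30 was lowest for eca-miR-384 and horse 34 was lowest for eca-miR-592. Of the 294 known miRNAs, 3 had this pattern of values above 0 in every heart and 0 in every lung and liver, these 2 and the cardiac miR-208b. Given how the table lists zeros, these values set no upper limit on either miRNA in lung or liver.

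eca-miR-1543, from the hairpin in SNHG4, stood at 712, 719, 930 and 501 normalized counts in the hearts of horses 27, 30, 32 and 34 (716 ± 175). In lung it stood at 22.6, 26.0 and 33.7 in horses 27, 30 and 32 and was listed at 0 in horse 34, and in liver it stood at 20.3, 52.3, 37.5 and 56.8 (41.7 ± 16.5). The hearts were far from both other tissues, and lung and liver overlapped. The heart mean was 17.2 times the liver mean, and within horses 27, 30 and 32 the ratio of heart to lung was 31.6, 27.7 and 27.6. The lung listed at 0 was the shallowest of the 4, in which 6 reads were worth 6.79 normalized counts, and the lung and liver values rested on 11 to 86 reads where they were above 0.

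Across the set, in normalized counts, every heart was above every lung for 6 of 7 miRNAs and above every liver for 7 of 7. The same held for 21.9% and 19.9% of the 256 miRNAs, and since these values chose the 7 nothing is read from the difference. Within horses, heart exceeded lung for 7 miRNAs in horses 27, 30 and 32 and for 6 in horse 34, and exceeded liver for 7 in every horse. The size of the ratios depended on the scale. The size factors and the read totals differ in these libraries such that, on CPM, the median log2 difference of all 256 miRNAs between heart and lung moved by -1.03 and that between heart and liver by -0.99. On CPM the ratio of heart to lung was 35.4 for eca-miR-95, 4.73 for eca-miR-490-5p and 3.97 for eca-miR-504. The heart means stayed above the lung and liver means for all 7 on that scale. The smallest of these ratios was that of heart to lung for eca-miR-190a, at 1.38. Ranked by the gap on the log2 scale between heart and the next tissue, the 7 took ranks 6 (eca-miR-95, 6.18), 7 (eca-miR-592, 5.84), 9 (eca-miR-384, 5.03), 10 (eca-miR-190a, 4.80), 11 (eca-miR-1543, 4.13), 14 (eca-miR-504, 3.33) and 15 (eca-miR-490-5p, 3.16) of 256. The gap is between means of log2 values, and for eca-miR-190a the lung mean takes in the listed zeros of horses 27, 30 and 32.

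The 4 hearts did not agree equally well for the 7 miRNAs. The SD of log2(normalized count + 1) over the hearts was 1.28 for eca-miR-490-5p and 1.27 for eca-miR-95, above the upper quartile of the 256 miRNAs (0.93). It was 0.82 for eca-miR-384 and 0.68 for eca-miR-592, above the median of 0.52, and 0.37, 0.33 and 0.26 for eca-miR-1543, eca-miR-504 and eca-miR-190a, below it. The most variable pair ran in opposite directions, with eca-miR-490-5p highest and eca-miR-95 lowest in horse 27, and the reverse at horse 32. Of the reads of the 7 miRNAs, eca-miR-95 took 45.3%, 60.6%, 82.5% and 78.6% in the hearts of horses 27, 30, 32 and 34.

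Muscle miRNAs also differed between these hearts, and not in 1 direction. In horses 27, 30, 32 and 34, miR-133a stood at 1332970, 1066430, 613594 and 283203 normalized counts in heart, and miR-133b at 116809, 65653, 38838 and 13028. miR-499-5p stood at 141724, 215256, 340490 and 291587, miR-1 was highest in horse 34 (7824380, against 4465400 to 5570700 in the others), and miR-208b was even at 1741 to 2100. miR-208a was listed at 0 except in horse 27. The 2 smooth muscle miRNAs ran against each other, miR-145 at 16100, 11121, 10124 and 3609 and miR-143 at 146473, 218998, 256800 and 250669. So of these lists, miR-133a, miR-133b, miR-208a and miR-145 were highest in horse 27, as eca-miR-490-5p was, while miR-499-5p and miR-143 were lowest there, as eca-miR-95 was. The part of these differences in the spread of either miRNA was not tested, and with 4 hearts no correlation is given.

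**Figure D3:**
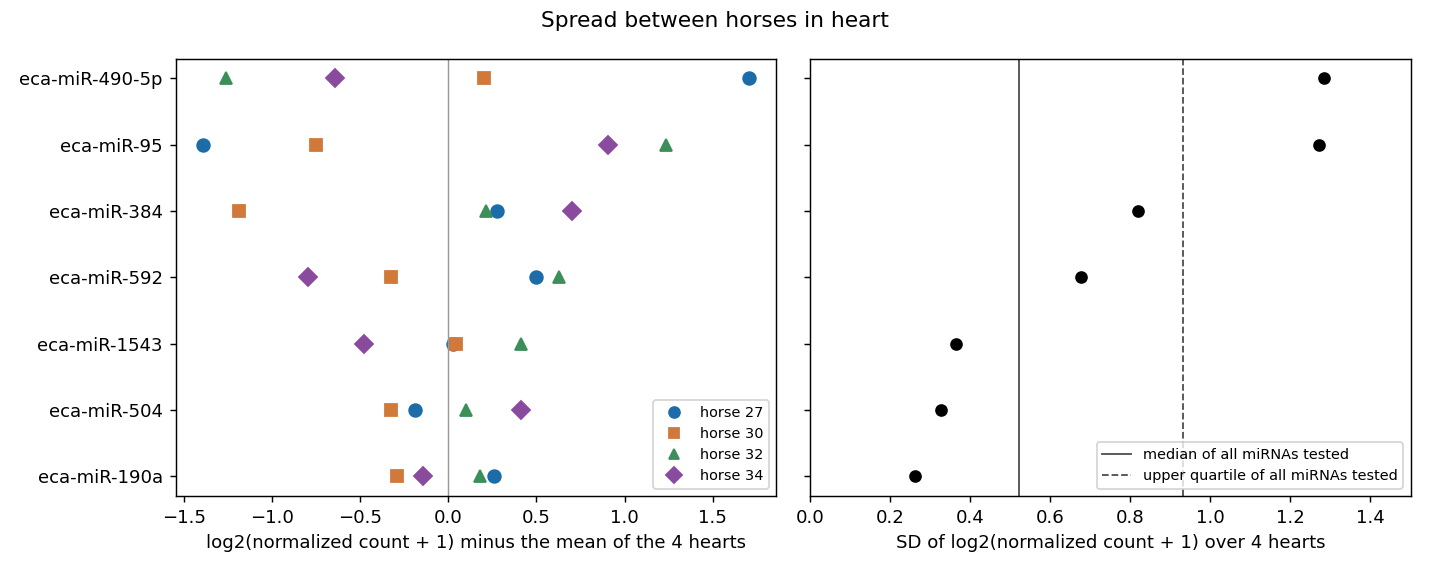
Left, log2(normalized count + 1) of each heart library minus the mean of the 4 hearts, with 1 point per horse; right, the SD over the 4 hearts, with the median (solid line, 0.52) and upper quartile (dashed line, 0.93) of the 256 miRNAs tested. eca-miR-490-5p and eca-miR-95 lie to the right of the dashed line with horses 27 and 32 at opposite ends, and eca-miR-190a, at 0.26, is the most even.

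Lung against liver asked whether the heart-enriched miRNAs also differed between the other two tissues, a contrast that their choice did not use directly. The 5 miRNAs with values outside heart were put through limma, fitted to log2(normalized count + 1). The fit pooled the spread between horses over heart, lung and liver, so the spread of the hearts also entered its p-values. P-values were adjusted by the Benjamini-Hochberg method over the 256 miRNAs. A call needed both an adjusted p below 0.05 and a change of 1 or more in size on the log2 scale. One of the 5 was called, eca-miR-95, which was 1.79 higher in lung on the log2 scale (SE 0.63; limma, adjusted p = 0.0304), with lung above liver in 4 of 4 horses by ratios of 1.28 to 7.26. The background in this comparison was 51.6% of 256 miRNAs called, and nothing is read about the set from this count. eca-miR-190a and eca-miR-490-5p were among the 5 only because their heart values passed the minimum level, and their lung and liver values were low or listed at 0. Every lung was above every liver for 1 of the 7, against 25.8% of the 256. eca-miR-592 and eca-miR-384, listed at 0 in every lung and liver, could not have this pattern, so nothing is read from this count either. The eca-miR-95 call rested on few libraries: the adjusted p was 0.0743 without horse 27, 0.0770 without horse 30, 0.119 without horse 32, and between 0.0678 and 0.0899 without any 1 of the lungs of horses 30 and 32 and the livers of horses 27 and 32 (limma).

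eca-miR-504 was 0.82 higher in lung on the log2 scale (SE 0.32; limma, adjusted p = 0.0474), under the minimum fold for a call, and lung exceeded liver in 3 of 4 horses. Without horse 30, in which liver was as high as lung, the difference was 1.11 (limma, adjusted p = 0.0199), and with the horse as a block the adjusted p was 0.0788. For eca-miR-490-5p (1.34, SE 0.87; adjusted p = 0.225) and eca-miR-190a (1.61, SE 1.21; adjusted p = 0.294) limma did not pass, and for both the listed zeros and low levels leave the test uninformative. The eca-miR-190a difference came from the lung of horse 34 alone. eca-miR-1543 had the opposite sign, at -1.71 (SE 0.94; limma, adjusted p = 0.147), and without the lung of horse 34 the difference was -0.51. For these 3 the difference could not be told from the spread between horses.

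**Figure D4:**
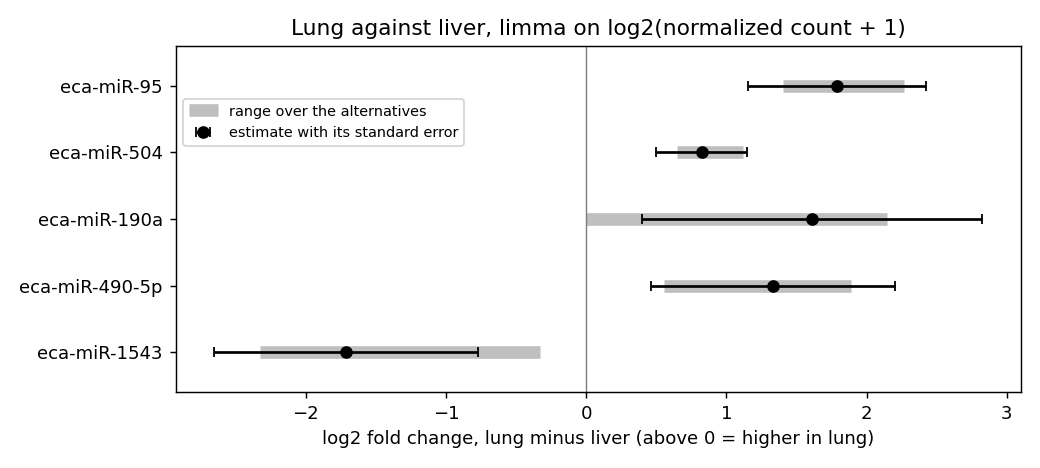
Log2 fold change of lung over liver for the 5 miRNAs with values outside heart (point, above 0 = higher in lung), with its standard error from limma (bars) and the range over 21 alternative settings (grey band). eca-miR-95, at 1.79, is the one that passed, and the eca-miR-190a band reaches 0 when the lung of horse 34 is left out.

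Since GRM8 and FGF13 are known from neurons, other miRNAs known from neurons were followed as a list of 24. Of these, 16 were in the table and 14 were tested. Against lung, 0 of 14 were higher and 5 were lower in heart (limma), beside 49 higher and 50 lower (38.7% called) of all 256. The split was 1 higher and 3 lower without horse 27, and 1 higher and 4 lower without the liver of horse 27. The brain miRNAs miR-138 and miR-153 were listed at 0 in every heart and averaged 356 and 27.7 normalized counts in lung, and miR-135a averaged 95.3 in heart and 883 in lung, a log2 fold change of -3.20 (SE 0.63; limma, adjusted p = 0.00142). miR-135b (listed at 0 in every heart, with 6, 6 and 14 reads in the lungs of horses 27, 30 and 32) and miR-326 (above 0 in 1 heart and in 3 lungs) were the other 2 called lower. In normalized counts every heart was above every lung for miR-9a (lowest heart 808, highest lung 600) and miR-132 (50.5 and 41.9). Neither was called, at log2 fold changes of 1.61 (SE 1.0) and 0.75 (SE 0.40). The spread pooled for miR-9a took in a log2 SD of 2.53 in liver, against 0.73 in heart and 0.64 in lung. On CPM the log2 differences from lung were 0.28 for miR-9a and -0.48 for miR-132. Against liver, 2 of 14 were higher in heart and 4 were lower (limma), beside 51 higher and 69 lower (46.9% called) of all 256. The higher ones were miR-9a, a regulator of neural progenitors, with 1534 normalized counts in heart and 24.1 in liver, where horse 27 was listed at 0 (log2 fold change 6.83, SE 1.0; limma, adjusted p = 0.000119), and miR-218, known from motor neurons, at 1507 and 634 (log2 fold change 1.14, SE 0.42; limma, adjusted p = 0.0395). On CPM miR-9a kept its call at 4.87 and miR-218 lost it at -0.05, and the split for the list was 1 higher and 6 lower. On that scale miR-138 also lost its call against liver (-0.98) and miR-135b its call against lung (-0.83), while miR-128, miR-330 and miR-7 were called lower against liver and miR-218, miR-330 and miR-7 against lung. miR-138 averaged 1.13 CPM in liver and miR-135b 0.91 CPM in lung, so the 1 added before the log shrank both differences. miR-135b kept an adjusted p of 0.0461 (limma) and missed only the minimum fold. In normalized counts the lower ones against liver were miR-135a, miR-135b, miR-138 and miR-383. The last had a liver mean of 153 normalized counts, with all hearts and lungs listed at 0. The miR-138 call rested on 11, 11 and 8 reads in the livers of horses 30, 32 and 34. Its liver of horse 27 and all its hearts were listed at 0. The median log2 fold change of the list was -0.48 against lung and 0.02 against liver, beside 0.00 and -0.23 for all 256 miRNAs. Between lung and liver, 5 of 14 were higher in lung (miR-9a, miR-138, miR-153, miR-218 and miR-326) and 2 lower (miR-135b and miR-383), with a median of 0.42 beside 0.08 over all 256.

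The known miRNAs whose pattern over the 12 libraries was most like each of the 7 were found by the mean absolute difference of their centred log2(normalized count + 1) values. This likeness rests on the same heart values that chose the set and is given as a description. miR-206, a muscle miRNA with a mean of 56.9 normalized counts in heart, came first for eca-miR-384 (0.66), eca-miR-592 (0.62), eca-miR-95 (1.0) and eca-miR-190a (1.16). For eca-miR-592, eca-miR-384 and eca-miR-190a the next were miR-378 and miR-100, and for eca-miR-95 they were miR-1 and miR-499-5p. eca-miR-1543 was nearest to miR-378 (0.78), followed by miR-206 and miR-100. eca-miR-504 was nearest to miR-100 (0.30), with a mean of 592221 in heart, 86246 in lung and 40804 in liver, followed by miR-328 and miR-342-5p. eca-miR-490-5p was nearest to miR-100 (0.91), followed by miR-652 and miR-342-5p. Within the 7, eca-miR-592 and eca-miR-384 were the closest pair (0.52) and eca-miR-95 and eca-miR-490-5p the farthest apart (1.97). eca-miR-592 and eca-miR-384 were both listed at 0 in every lung and liver, so their closeness rests in part on shared zeros. miR-206 was also low there, with a mean of 1.55 in lung and 0 in liver.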

How the data were processed

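Small RNA of 12 tissue pieces (heart, lung and liver of 4 horses) was sequenced on an Illumina NextSeq. The study's methods name Trim Galore, sRNAbench and miRBase with the EquCab3.0 genome, and a minimum of 6 reads; the submitters' processing notes name Trimmomatic and BWA, and which of these made the table is not given in the sources used here. The values are a normalized signal per entry, that is, counts that the authors divided by a DESeq2 size factor, as deposited. The table also holds the authors' own comparison without naming its tissues: a mean, log2 fold changes with errors, a test score (Wald statistic) and p-values by the authors, none of which was used. Of the value columns, 0 belonged to no sample of the series.

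Samples were grouped by tissue from the labels. Dividing each library by its lowest value above 0 over 6 gave whole numbers for 100% of values (within 0.01), which set the read totals; the minimum of 6 reads is why tests on reads were not run. The 256 known miRNAs that reached 10 normalized counts in 4 or more libraries were fitted with limma 3.58.1 (R 4.3.3), with a trend in the variance, on log2(value + 1) over all 12 libraries with a mean per tissue. A fold change on this scale understates the change of low miRNAs. P-values measure the spread between 4 horses, pooled over heart, lung and liver. Any contrast of tissues therefore also draws on the spread of the tissue left out of it. The step was tested on simulated data. Intervals are 95% Poisson and cover counting error only, since reads carry no molecular identifiers.

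The 7 miRNAs, the neural and marker lists and the named miRNAs (the 7, miR-190b, called neural miRNAs and the 3 nearest in pattern to each of the 7) were chosen with earlier results of these data known. Libraries of a horse come from 1 animal and were treated as paired in an alternative fit with the horse as a block; correlations of deviations from tissue means were -0.27 to 0.15 within horses (median -0.06) and -0.27 to 0.36 between horses (median 0.03). Other alternatives were pseudocounts of 0.5 and 10, no filter on low values, CPM, no fold minimum, and each horse or library left out. The host gene of 1 of the 7 miRNAs is not reported here.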

Additional observations from a re-analysis of the deposited data

Results flagged for a closer look

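Among 16 groups of 4 libraries that were checked for a value far from the rest (chance gives about 1 in 20), 1 stood out: eca-miR-190a in the lung of horse 34, at 86.0 normalized counts with the other 3 lungs at 0. With 3 values tied at 0 any value above 0 would have stood out, so its size played no part. In that library 5 of the 294 known miRNAs were above 0 that were listed at 0 in the other 3 lungs (1 to 7 in the other lungs), and 2 of these had 50 reads or more, eca-miR-190a and miR-144 (1193 reads). A further result came from entries that the comparisons did not use, those named by their sequence rather than as a known miRNA. Of 335 such entries, 6 were above 0 in every heart and at 0 in every lung and liver, a pattern that 0 had in lung alone and 5 in liver alone. The 6 are printed because they share the pattern of eca-miR-592 and eca-miR-384, as RNA from 5′ to 3′ with bases 2 to 8 in capitals, and each averaged the following normalized counts in heart (± SD, n = 4).
entry averaging 218 ± 114: aACAUAGAggcucaaaccg
entry averaging 206 ± 78.7: uGGAAAGCaaagaaguaug
entry averaging 132 ± 22.5: uGGGCUCUgccgaggaccucucguc
entry averaging 65.3 ± 32.7: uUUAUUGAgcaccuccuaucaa
entry averaging 58.0 ± 14.6: uUUAGUGUgauaauggcguuuga
entry averaging 37.8 ± 8.02: uGGCGCGGcugugccagcgagcg
Their places in the genome were not looked up here, and whether any comes from a hairpin of the 7 miRNAs was not tested.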

How the results depend on the processing

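The count of members called between lung and liver (1 of 5) was 2 with no fold minimum, and 0 to 2 when a horse or a library was left out. Only eca-miR-95 and eca-miR-504 were called under any alternative. eca-miR-95 stayed higher in lung under all 21 alternatives (1.41 to 2.27 on the log2 scale; limma, adjusted p 0.0168 to 0.119) and was called in 14 of them, the horse block included (limma, adjusted p = 0.0300). Among these 14 are the fits without a heart library and those with another scale, pseudocount, filter or block. Each of those kept every lung and liver library. The call was lost without horse 27, 30 or 32. The eca-miR-190a difference was 0 without horse 34 or its lung. The related miR-190b was not called between heart and liver (count 0), but its count was 1 on CPM and 1 with the horse as a block, and 0 to 1 with libraries left out. The neural count between heart and lung (5) fell to 3 without horse 30 and was 3 to 5 over all libraries left out; on CPM it was 7. With the horse as a block no other count of calls moved by over 1.5 times. On CPM the ratios of heart to lung and liver for eca-miR-504 were 3.97 and 7.28, and the ratio of heart to liver for eca-miR-1543 was 7.73. Of the other alternatives for these counts, 113 stayed within 1.5 times of the value given. Alternatives that leave out a library were added after seeing the data, while those that leave out a horse were planned. The number of reads limits eca-miR-490-5p, eca-miR-592, eca-miR-384 and eca-miR-1543 outside heart, and the part of depth in the listed zeros was not tested.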
